A study of Mus musculus with 12 samples.

Results

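The B cell receptor signalling cascade was followed as 34 listed genes in cells of a mouse B cell lymphoma, Eµ-Myc. The list was matched by mouse symbol to the Ensembl gene IDs of the count files, which hold 56748 IDs, and all 34 were found. In 33 of the 34 the counts were high enough for testing, among 13535 tested genes in all, and Nfatc2 was not. Bulk RNA-seq of 12 libraries covered cells taken straight from culture (4 libraries, called culture), cells sorted from lymph nodes of C57BL/6J mice on day 11 after spread through lymphatic vessels (4, lymphatic), and cells sorted from lymph nodes on day 18 after spread through the blood (4, hematogenous). All 3 groups carry the same Eµ-Myc transgene, in which the immunoglobulin heavy chain enhancer drives Myc in B lineage cells, and no group is free of it. Route and day change together and cannot be told apart. The labels do not say whether the cells are 1 clone, whether animals were pooled, how the sort was gated or what separates 1 replicate from the next, so the spread behind each p-value may be technical. Groups follow the sample titles, although the tissue field of the culture samples reads lymph node.

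The B cell receptor is a membrane immunoglobulin bound to the signalling chains CD79A and CD79B, whose tyrosines are phosphorylated by SRC family kinases and then bind the kinase SYK. SYK and BTK, held together by adaptors such as BLNK, activate phospholipase C gamma, which releases calcium towards calcineurin and NFAT and feeds protein kinase C and the BCL10 and MALT1 relay to NF-kB, while a PI3 kinase arm feeds AKT. Phosphatases such as SHIP1 and SHP1 and ubiquitin ligases damp the signal, and in mature B cells a weak tonic output of the same cascade is known to support survival.

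Levels are CPM, the counts of a gene per fixed number of assigned counts in the library, scaled by TMM factors, changes are log2 ratios with their standard error (SE), and a gene is called where its adjusted p from edgeR is under 0.05. Assigned counts ran from 5286775 to 25302016 per library. Of 6 listed B cell markers, 2 were higher and 2 lower in lymphatic cells and 5 higher in hematogenous cells. Of all tested genes 13.4% were higher and 13.0% lower in lymphatic cells, and 13.9% were higher and 13.9% lower in hematogenous cells. Pax5 had means of 549, 420 and 778 CPM over culture, lymphatic and hematogenous libraries and Ighm of 3160, 3681 and 3970 CPM. Ms4a1, which encodes CD20 of maturing B cells, was nearly absent in culture at 0.788 CPM and rose to 17.2 and 78.8 CPM (4.39 ± 0.29 and 6.58 ± 0.29 on the log2 scale, adjusted p = 1.9e-07 and 3.15e-09). A list of 12 T cell markers summed to 1.18 to 3.80 CPM over culture, 23.7 to 100 CPM over lymphatic and 8.99 to 19.5 CPM over hematogenous libraries, and Cd3d, Trbc2, Cd4, Cd8a and Zap70 had 0 counts in culture. Of these 12 genes, 12 were called higher in lymphatic and 9 in hematogenous cells. The 10 macrophage and monocyte markers summed to 17.5 to 22.5 CPM, 31.9 to 74.0 CPM and 29.1 to 34.2 CPM over the same groups, and Lyz2, C1qa, C1qb, C1qc and Fcgr1 had 0 counts in culture. Of the 6 of them tested, 4 rose in each lymph node group, while Csf1r (−1.19 and −2.45 on the log2 scale) and Itgam (−3.13 and −2.66) fell in both. In bulk RNA, fewer cells of a type and less RNA per cell cannot be told apart.

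Lymphatic 4 stood apart and touches several members, so the counts over all members and over all other pathway genes are also given without it. Ribosomal protein genes took 14.4% of its counts, against 7.08% to 8.96% in the other 11 libraries. Its member levels followed transcript length: all 8 tested members with more than 10 kb of exons (Pik3r1, Stim1, Cblb, Sos1, Cbl, Malt1, Ptprc and Itpr1) stood at 0.272 to 0.709 of the mean of lymphatic 1 to 3, and all 7 with less than 3 kb (Cd79b, Cd79a, Hcls1, Blk, Ptpn6, Cd81 and Grb2) at 1.15 to 1.77 times that mean. Across the 33 tested members the Spearman rho between exon length and the library's deviation from its group was −0.78 in lymphatic 4 and −0.76 in culture 1, and over 13316 tested genes it was −0.52 and −0.31. These rho values are across genes that share 1 library and are a description. Marker sums of other cells differed in lymphatic 4 too. It had 100 CPM of T cell markers (23.7 to 44.6 in lymphatic 1 to 3) and 74.0 CPM of macrophage and monocyte markers (31.9 to 64.0). For 6 NK cell markers it had 9.39 CPM (1.35 to 3.19), and for 10 stromal and endothelial markers, where it was lowest, 80.8 CPM (94.7 to 115). The part of length, RNA quality or other cells in the member changes was not tested.

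**Figure D1:**
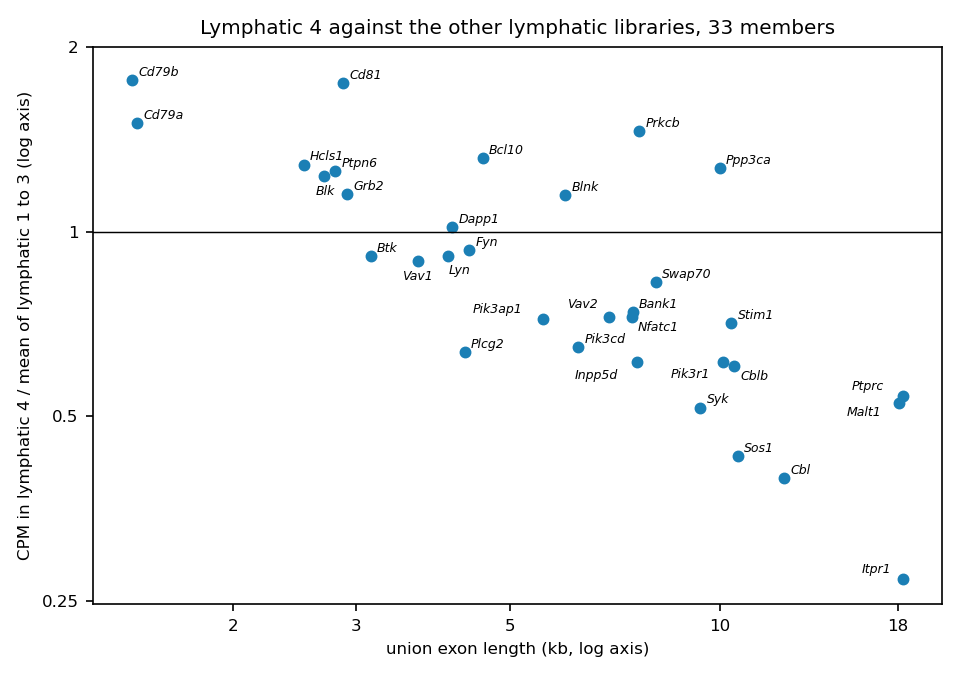
Level of each tested member in lymphatic 4 divided by its mean in lymphatic 1 to 3 (vertical axis, log scale), against union exon length in kb (horizontal axis, log scale), 1 point per member. The points fall from 1.77 for Cd79b at the left to 0.272 for Itpr1 at the right, with Prkcb and Ppp3ca above 1 among the longer genes.

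Against culture the cascade changed in both directions in lymphatic cells and mostly upward in hematogenous cells. In lymphatic cells 7 of 33 tested members were higher and 9 lower, 48.5% of them, where 26.4% of all tested genes were called (13.4% higher and 13.0% lower). In hematogenous cells 15 were higher and 1 lower, also 48.5%, where 27.8% of all genes were called (13.9% higher and 13.9% lower). The median log2 change of the members was −0.16 in lymphatic cells, beside 0.04 over all tested genes, and 0.19 in hematogenous cells, beside −0.00. The comparisons share the culture libraries. Summed over the 34 members, levels were 4572 to 4806 CPM in the culture libraries, 4273 to 4836 CPM in the lymphatic and 5998 to 6264 CPM in the hematogenous ones, so the sums of culture and lymphatic libraries overlapped and the hematogenous sums lay above both.

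Between the routes, 2 of 33 members were higher and 15 lower in lymphatic than in hematogenous cells, 51.5% of them, where 22.3% of all genes were called (11.4% higher and 10.9% lower). The median was −0.37, beside 0.03 over all tested genes. A change of at least 2-fold among called genes was reached by 4 members in lymphatic cells (10.4% of all genes), 6 in hematogenous cells (13.0%) and 2 between the routes (7.65%). Ranges of CPM did not overlap between lymphatic cells and culture for 17 members (51.5%, beside 30.1% of all tested genes), between hematogenous cells and culture for 22 (66.7%, beside 43.6%) and between the routes for 16 (48.5%, beside 24.6%). Without lymphatic 4 the counts were 7 higher and 14 lower in lymphatic cells (35.6% of all genes called), 16 higher and 5 lower in hematogenous cells (43.1%), and 2 higher and 19 lower between the routes (31.5%). The 2-fold counts were then again 4, 6 and 2 (11.2%, 14.3% and 8.00% of all genes), and ranges did not overlap for 20 members between lymphatic cells and culture (39.9% of all genes) and for 19 between the routes (33.9%).

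The members fell into a few patterns. In both lymph node groups Cd79b, Syk, Lyn, Blk, Bank1, Dapp1 and Prkcb rose, and Fyn was the only member that fell in both. Grb2 and Swap70 fell in lymphatic and rose in hematogenous cells. Another 6 members fell in lymphatic cells and were not called in hematogenous cells (Sos1, Vav2, Plcg2, Stim1, Ppp3ca and Nfatc1), and 6 rose in hematogenous cells and were not called in lymphatic cells (Vav1, Hcls1, Pik3r1, Inpp5d, Ptpn6 and Cblb). The last 11 were called in neither group against culture: Cd79a, Cd81, Btk, Blnk, Pik3cd, Pik3ap1, Itpr1, Malt1, Bcl10, Ptprc and Cbl. Without lymphatic 4, Sos1 and Vav2 joined Fyn as members that fell in both groups, and Hcls1 and Inpp5d joined Grb2 and Swap70 as members that fell in lymphatic and rose in hematogenous cells. Cd79a, Cd81 and Cbl were then called lower in lymphatic cells alone, Malt1 higher and Blnk and Ptprc lower in hematogenous cells alone, and 5 members stayed uncalled in both (Btk, Pik3cd, Pik3ap1, Itpr1 and Bcl10).

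**Figure D2:**
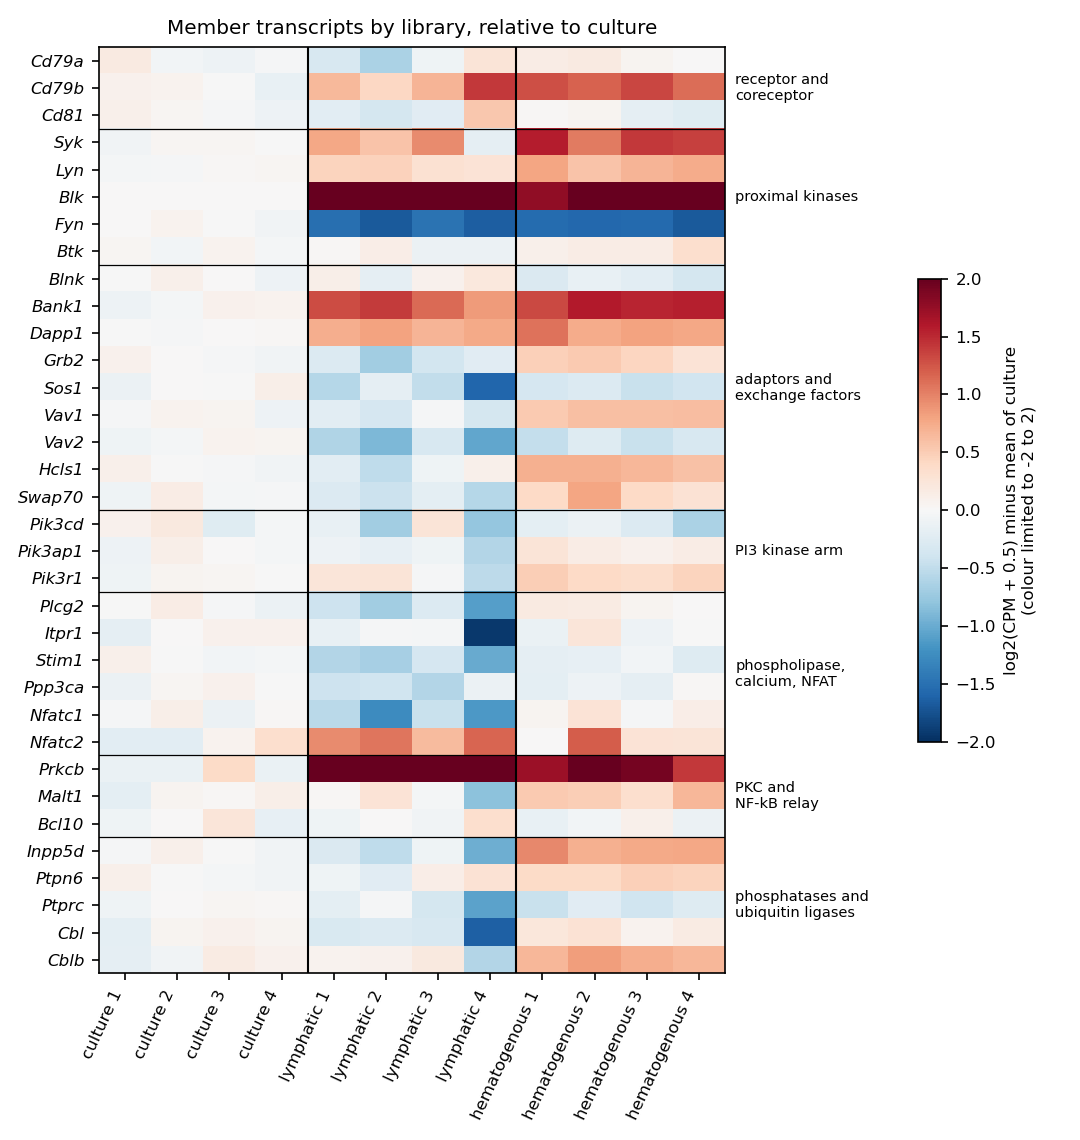
Level of each member in each of the 12 libraries, as log2(CPM + 0.5) minus its mean over culture with colours limited at −2 and 2, with the 34 members in rows by role. Cd79b, Syk and Bank1 are above culture in most lymph node libraries, Fyn is below it in all 8, Blk and Prkcb reach the limit of the scale, and lymphatic 4 differs from lymphatic 1 to 3 in the long genes.

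**Figure D3:**
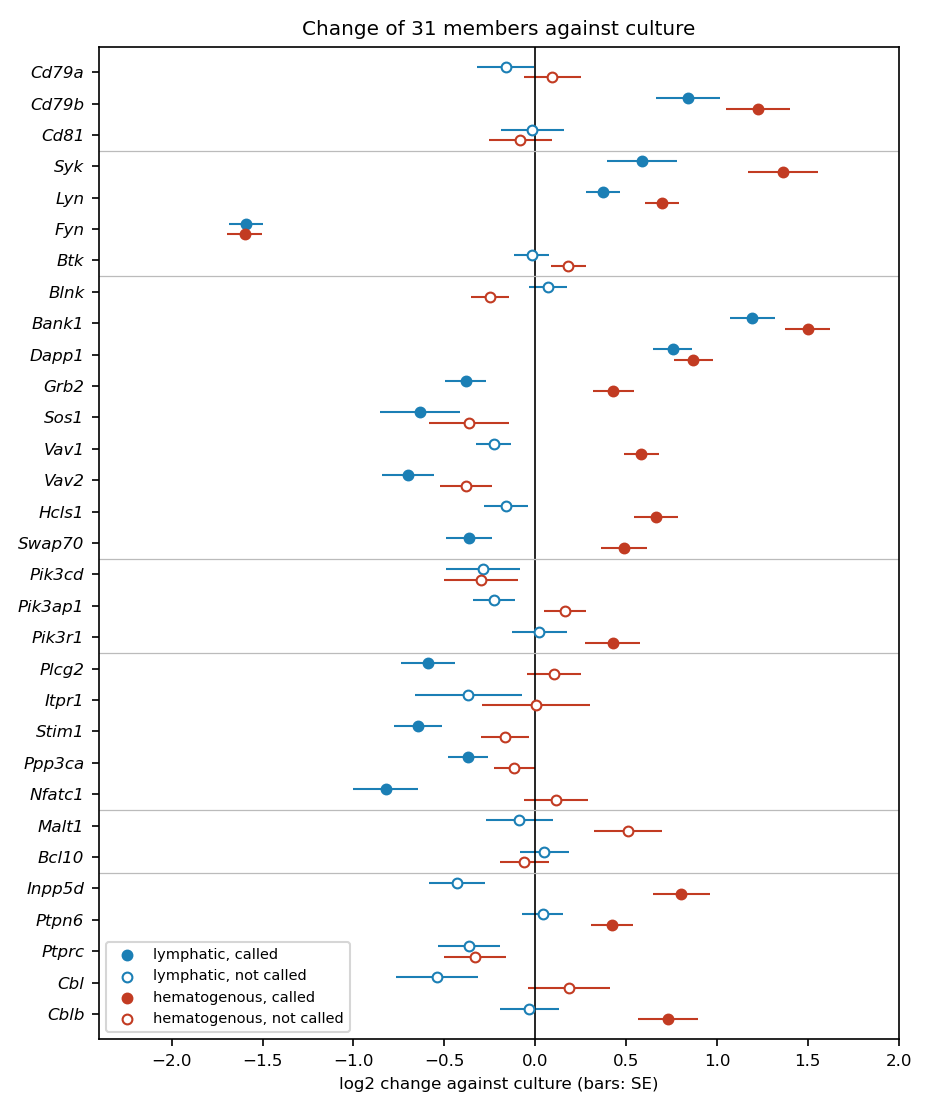
Log2 change against culture (horizontal axis, bars are SE) of 31 members in lymphatic (blue) and hematogenous (red) cells, filled where the adjusted p was under 0.05. Bank1, Cd79b and Syk lie to the right in both groups, Fyn lies at −1.59 and −1.60, and Grb2 and Swap70 lie on opposite sides of 0.

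The receptor chains split. Cd79a (ENSMUSG00000003379.8), which encodes CD79A, was at 504, 429, 413 and 438 CPM in culture 1 to 4, at 356, 286, 420 and 533 CPM in lymphatic 1 to 4 and at 493, 503, 464 and 446 CPM in hematogenous 1 to 4. The groups overlapped, with lymphatic 2 lowest and lymphatic 4 highest of all 12 libraries. Its log2 change was −0.16 ± 0.16 in lymphatic cells (adjusted p = 0.484) and 0.09 ± 0.16 in hematogenous cells (adjusted p = 0.713). Without lymphatic 4 it was called lower in lymphatic cells, at −0.34 against culture (adjusted p = 0.0248) and −0.44 against hematogenous cells (adjusted p = 0.00712).

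Cd79b (ENSMUSG00000040592.12), which encodes the partner chain CD79B, was at 285, 281, 269 and 243 CPM in culture, 423, 359, 433 and 716 CPM in lymphatic and 655, 608, 679 and 582 CPM in hematogenous libraries. All 8 lymph node libraries lay above all 4 culture libraries, and lymphatic 4 lay above every other library. It rose by 0.84 ± 0.18 on the log2 scale in lymphatic cells (adjusted p = 0.00293) and 1.23 ± 0.18 in hematogenous cells (adjusted p = 0.000122). Between the routes it was −0.39 ± 0.17 (adjusted p = 0.125), and without lymphatic 4 it was −0.65 (adjusted p = 5.33e-05). The change in lymphatic cells without that library was 0.58 (adjusted p = 8.64e-05).

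Within a library, the ratio of Cd79b to Cd79a CPM was 0.556 to 0.655 for culture, 1.03 to 1.34 for lymphatic and 1.21 to 1.46 for hematogenous cells. The ratio does not depend on how libraries are scaled, and in every lymph node library it lay above every culture library. The log2 difference was 0.99 in lymphatic and 1.13 in hematogenous cells against culture, each with a two-sided exact permutation p = 0.0286 (4 against 4 libraries, the smallest this design allows) and an adjusted p = 0.0429 over 15 ratio tests. Between the routes the ratios overlapped (−0.14, exact permutation p = 0.229, adjusted p = 0.245). Per kb of exon, Cd79a was the highest member in culture at 306 CPM per kb with Cd79b next at 188, while Cd79b was highest in lymphatic (337 against 274) and in hematogenous cells (441 against 327). Cd81, a tetraspanin of the B cell coreceptor complex, stayed uncalled in all 3 comparisons with means of 61.9, 61.2 and 58.4 CPM, and was called lower in lymphatic cells without lymphatic 4 (−0.27, adjusted p = 0.0364).

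**Figure D4:**
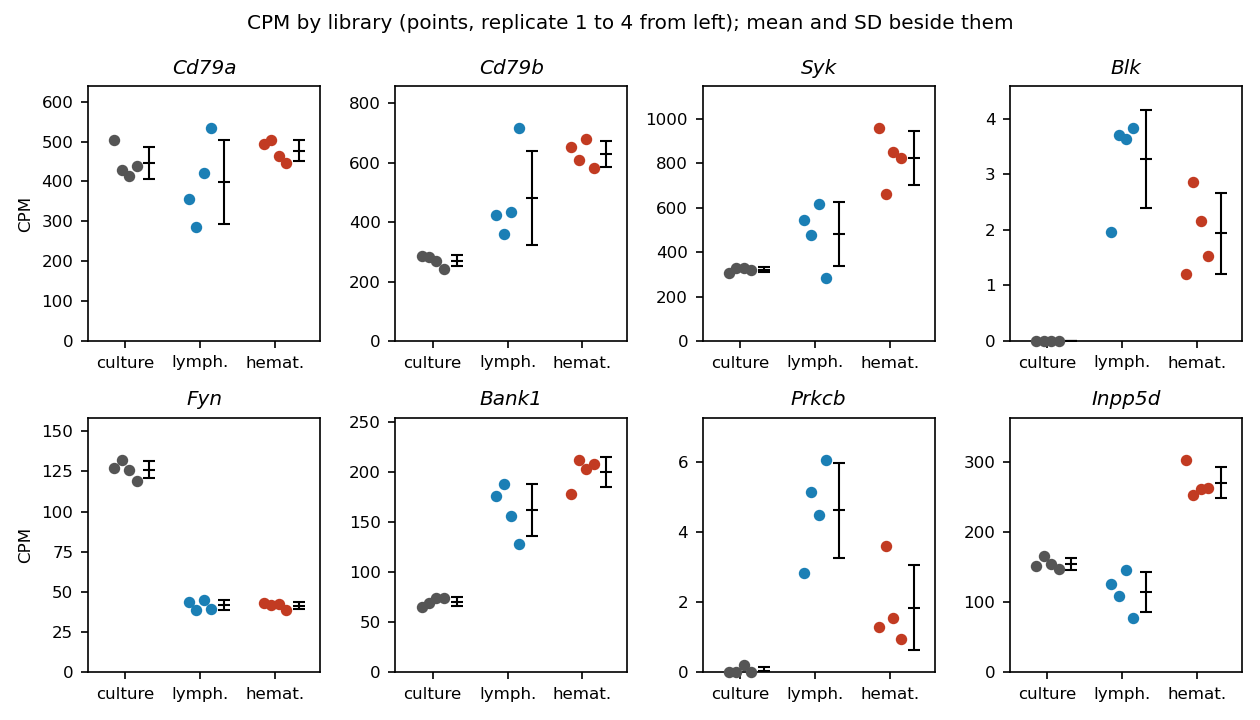
CPM of 8 members in each library (vertical axes, linear from 0), points for libraries 1 to 4 from left in each group, bars for the mean ± SD over 4 libraries. Cd79a overlaps between groups, the culture points of Fyn lie above all others, and culture points of Blk sit at 0.

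Among the proximal kinases, Syk, Lyn and Blk rose, Fyn fell and Btk was not called. Syk (ENSMUSG00000021457.15), the kinase that docks on the phosphorylated receptor chains, was at 306, 331, 328 and 318 CPM in culture, 547, 479, 618 and 283 CPM in lymphatic and 958, 661, 853 and 827 CPM in hematogenous libraries. Lymphatic 4 lay below every culture library, the other lymphatic libraries lay above them, and the hematogenous libraries were highest without overlap. The log2 change was 0.59 ± 0.19 in lymphatic (adjusted p = 0.0366) and 1.36 ± 0.19 in hematogenous cells (adjusted p = 0.000114), and −0.78 ± 0.19 between the routes (adjusted p = 0.0108). The lymphatic call was lost under 13 of 22 alternative settings, and without lymphatic 4 the change was 0.77 (adjusted p = 6.01e-05).

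Lyn, the SRC family kinase that both starts and restrains B cell receptor signals, was at 92.8, 94.2, 97.1 and 97.8 CPM in culture, 130, 131, 118 and 116 CPM in lymphatic and 165, 142, 153 and 160 CPM in hematogenous libraries. The 3 groups did not overlap. Its log2 change was 0.37 ± 0.09 (adjusted p = 0.00833) in lymphatic and 0.70 ± 0.09 (adjusted p = 5.85e-05) in hematogenous cells, and −0.32 ± 0.09 between the routes (adjusted p = 0.0214), of which the last call was lost under 5 of 22 settings.

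Fyn (ENSMUSG00000019843.15), another SRC family kinase and one that T cells also use, was at 127, 132, 126 and 119 CPM in culture, 43.8, 38.9, 44.9 and 39.7 CPM in lymphatic and 42.9, 42.2, 42.5 and 38.7 CPM in hematogenous libraries. Every lymph node library lay below every culture library, and the routes overlapped. The log2 change was −1.59 ± 0.10 in lymphatic (adjusted p = 8.39e-08) and −1.60 ± 0.10 in hematogenous cells (adjusted p = 4.89e-08), with 0.01 ± 0.09 between the routes (adjusted p = 0.972). T cell markers were higher in the same lymph node libraries in which Fyn was lower, and the part of T cells in the level of Fyn was not tested. The ratio of Fyn to Lyn ran from 1.22 to 1.40 in culture, from 0.296 to 0.382 for lymphatic and from 0.243 to 0.297 for hematogenous cells. Its log2 difference was −1.96 and −2.29 against culture (exact permutation p = 0.0286 each, adjusted p = 0.0429), and 0.33 between the routes (exact permutation p = 0.0571, adjusted p = 0.0714).

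Promoters (250 bases before to 50 after the start, from RefSeq on GRCm38.p6) were searched on both strands for CCCNNGGG, the core of the EBF site, GAGGAA, read by ETS factors such as PU.1, ATTTGCAT, the octamer of POU factors, CACGTG, an E-box read by MYC and MAX, and an IRF element named only by its factors. For 27 of the 34 members the table held 34 promoters. Of these, 6 held CCCNNGGG (17.6%, beside 13.7% of all 32851 promoters of that length), 13 held GAGGAA (38.2%, beside 28.3%), 2 held ATTTGCAT (5.88%, beside 1.74%), 2 held CACGTG (5.88%, beside 7.15%) and 0 held the IRF element (beside 3.44%). The promoter of Fyn, the member that fell in both groups, is shown first, on chr10:39369549-39369848, plus strand, and the capitals mark its 1 match to CCCNNGGG, the only listed motif in it.
Fyn: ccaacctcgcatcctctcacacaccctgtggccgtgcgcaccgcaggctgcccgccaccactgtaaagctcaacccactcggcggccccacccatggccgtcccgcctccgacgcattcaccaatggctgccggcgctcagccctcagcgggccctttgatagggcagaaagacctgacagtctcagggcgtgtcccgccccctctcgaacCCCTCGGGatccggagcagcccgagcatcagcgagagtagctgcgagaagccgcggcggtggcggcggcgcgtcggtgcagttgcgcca

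Blk (ENSMUSG00000014453.5), a SRC family kinase of B lineage cells, had 0 counts in all 4 culture libraries. It was at 1.96, 3.71, 3.63 and 3.82 CPM in lymphatic and 1.20, 2.86, 2.15 and 1.52 CPM in hematogenous libraries, from 236 and 79 counts in all. Against a floor of 3 counts over the culture group it was at least 40.9-fold higher in lymphatic and at least 24.2-fold higher in hematogenous cells (adjusted p = 2.4e-05 and 5.81e-05). Between the routes the groups overlapped (log2 change 0.74 ± 0.34, adjusted p = 0.141). Btk, the TEC kinase that activates phospholipase C gamma, had means of 221, 217 and 250 CPM, with log2 changes of −0.02 ± 0.10 and 0.18 ± 0.10 against culture (adjusted p = 0.901 and 0.191).

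The adaptors and exchange factors held 2 higher and 4 lower of 9 in lymphatic cells, where 13.4% of all genes were higher and 13.0% lower. They held 6 higher of 9 in hematogenous cells, where 13.9% of all genes were higher. Without lymphatic 4 there were 5 lower in lymphatic cells, with Hcls1 added (17.9% of all genes lower). In hematogenous cells 3 were then lower, Vav2, Sos1 and Blnk (21.3% of all genes lower). Bank1 (ENSMUSG00000037922.14), a scaffold that binds LYN and the calcium channel of the cascade, was at 65.8, 69.0, 74.9 and 74.0 CPM in culture, 176, 188, 156 and 128 CPM in lymphatic and 178, 212, 204 and 208 CPM in hematogenous libraries. Every lymph node library was above every culture library. Bank1 rose by 1.19 ± 0.12 on the log2 scale in lymphatic (adjusted p = 9.62e-06) and 1.50 ± 0.12 in hematogenous cells (adjusted p = 7.78e-07), and −0.31 ± 0.12 between the routes (adjusted p = 0.0846). The promoter of Bank1, one of the members that rose in both groups, lies on chr3:136326017-136326316, minus strand, with 1 match to CCCNNGGG in capitals and no other listed motif.
Bank1: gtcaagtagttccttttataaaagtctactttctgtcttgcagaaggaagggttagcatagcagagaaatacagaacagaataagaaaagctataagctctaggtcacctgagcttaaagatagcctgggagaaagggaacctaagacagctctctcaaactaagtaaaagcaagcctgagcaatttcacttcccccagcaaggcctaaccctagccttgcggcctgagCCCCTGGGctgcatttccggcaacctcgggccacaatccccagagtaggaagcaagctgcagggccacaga

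Dapp1, an adaptor that binds the lipid product of PI3 kinase, was at 23.5 to 24.3 CPM in culture, 38.8 to 42.0 CPM in lymphatic and 40.2 to 51.1 CPM in hematogenous libraries. It rose by 0.76 ± 0.11 and 0.87 ± 0.11 on the log2 scale (adjusted p = 0.000171 and 3.59e-05), and the lymph node groups overlapped. Blnk, the scaffold between SYK and phospholipase C gamma, was not called against culture (0.07 ± 0.10, adjusted p = 0.662, and −0.25 ± 0.10, adjusted p = 0.0959) and was higher in lymphatic than in hematogenous cells (0.32 ± 0.10, adjusted p = 0.0422), a call that was lost under 13 of 22 settings.

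Grb2 and Swap70 moved in opposite directions in the lymph node groups. Grb2, the adaptor that brings the RAS exchange factor SOS1 to the receptor, was at 125, 119, 116 and 112 CPM in culture, 97.5, 73.0, 91.8 and 101 CPM in lymphatic and 164, 170, 160 and 142 CPM in hematogenous libraries. The 3 groups did not overlap, with lymphatic lowest and hematogenous highest. The log2 change was −0.38 ± 0.11 (adjusted p = 0.0228) in lymphatic, 0.43 ± 0.11 (adjusted p = 0.0107) in hematogenous cells and −0.81 ± 0.11 (adjusted p = 0.000293) between the routes. Swap70, a lipid-binding regulator of the RAC GTPase, was at 97.8, 115, 101 and 102 CPM in culture, 85.2, 76.8, 90.4 and 69.7 CPM in lymphatic and 137, 180, 137 and 127 CPM in hematogenous libraries. Its groups did not overlap either, and its changes were −0.37 ± 0.13 (adjusted p = 0.0476), 0.49 ± 0.13 (adjusted p = 0.00993) and −0.85 ± 0.13 (adjusted p = 0.000463). The lymphatic call was lost under 6 of 22 settings for Grb2 and under 14 for Swap70.

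The exchange factors of the VAV family, which activate RAC, differed from each other. Vav1 was at means of 102, 87.3 and 153 CPM in culture, lymphatic and hematogenous cells and rose only in hematogenous cells (0.58 ± 0.10, adjusted p = 0.000456), with −0.23 ± 0.10 in lymphatic cells (adjusted p = 0.102) and −0.81 ± 0.10 between the routes (adjusted p = 0.000117). Vav2 fell in lymphatic cells, from 86.3 to 53.2 CPM (−0.70 ± 0.14, adjusted p = 0.00253), and was at 66.4 CPM in hematogenous cells (−0.38 ± 0.14, adjusted p = 0.0645). The ratio of Vav2 to Vav1 ran from 0.787 to 0.934 in culture, 0.517 to 0.685 for lymphatic and 0.405 to 0.466 for hematogenous cells, 3 ranges without overlap. Its log2 difference was −0.49 and −0.96 against culture and 0.47 between the routes (exact permutation p = 0.0286 and adjusted p = 0.0429 each). Hcls1, a cortactin-like actin regulator that SYK phosphorylates, rose in hematogenous cells (means of 159, 142 and 252 CPM, 0.67 ± 0.12, adjusted p = 0.00081), with −0.83 ± 0.12 between the routes (adjusted p = 0.000394). Without lymphatic 4 it was called lower in lymphatic cells (−0.27, adjusted p = 0.0327). Sos1, the RAS exchange factor, fell in lymphatic cells (−0.63 ± 0.22, adjusted p = 0.0477), a call lost under 14 of 22 settings.

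**Figure D5:**
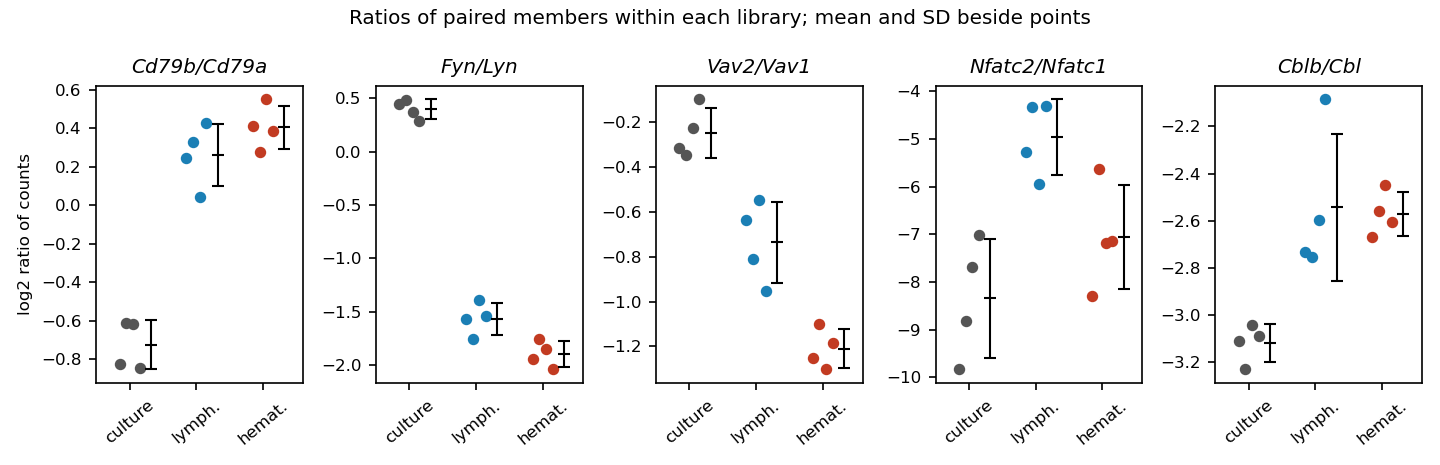
Log2 ratio of 5 pairs of members within each library (vertical axis), by group, with the group mean ± SD over 4 libraries. Cd79b over Cd79a is higher and Fyn over Lyn and Vav2 over Vav1 are lower in all lymph node libraries than in all culture libraries, while the culture points of Nfatc2 over Nfatc1 rest on 0 to 2 counts and the 0.5 added.

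In the PI3 kinase arm 1 of 3 members was called against culture, where 26.4% of all genes were called in lymphatic and 27.8% in hematogenous cells. Pik3r1, a regulatory subunit, rose in hematogenous cells (54.4 to 73.1 CPM, 0.43 ± 0.15, adjusted p = 0.0476), and that call was lost under 13 of 22 settings. Pik3cd, the catalytic subunit that lymphocytes rely on, had changes of −0.29 ± 0.20 and −0.30 ± 0.20 (adjusted p = 0.325 and 0.315). Pik3ap1, the adaptor BCAP that links the coreceptor to PI3 kinase, was lower in lymphatic than in hematogenous cells (100 and 131 CPM, −0.39 ± 0.12, adjusted p = 0.0292), a call lost under 7 of 22 settings. Without lymphatic 4, Pik3r1 was called lower there as well (−0.26, adjusted p = 0.0333).

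The phospholipase, calcium and NFAT members fell in lymphatic cells, 4 of 5 tested, where 13.0% of all genes were lower. In hematogenous cells 0 of 5 were called by edgeR, DESeq2 or limma-voom, with 0 of 5 also at an unadjusted p under 0.05. Of all genes edgeR called 27.8% there. Plcg2, phospholipase C gamma of B cells, was at 254, 282, 251 and 234 CPM in culture, 192, 158, 210 and 119 CPM in lymphatic and 289, 285, 265 and 257 CPM in hematogenous libraries. The lymphatic libraries lay below both other groups without overlap, and lymphatic 4 was lowest. Its log2 change was −0.59 ± 0.15 in lymphatic cells (adjusted p = 0.00982) and 0.10 ± 0.15 in hematogenous cells (adjusted p = 0.671), with −0.69 ± 0.15 between the routes (adjusted p = 0.00492).

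Nfatc1, a calcium-regulated transcription factor, was at 35.5, 39.4, 33.4 and 37.1 CPM in culture, 24.9, 14.9, 26.6 and 16.1 CPM in lymphatic and 37.7, 43.9, 35.7 and 40.1 CPM in hematogenous libraries. It too was lowest in the lymphatic libraries without overlap (−0.82 ± 0.18, adjusted p = 0.00369), and it was not called in hematogenous cells (0.12 ± 0.18, adjusted p = 0.689). Stim1, the calcium sensor of the endoplasmic reticulum, fell in lymphatic cells (60.3 to 38.7 CPM, −0.64 ± 0.13, adjusted p = 0.00269) and was lower there than in hematogenous cells (−0.48 ± 0.13, adjusted p = 0.0197). Ppp3ca, the catalytic subunit of calcineurin, was lower in lymphatic cells (280 to 217 CPM, −0.37 ± 0.11, adjusted p = 0.0244), a call lost under 8 of 22 settings. Itpr1, the calcium release channel, was at 76.2, 83.5 and 82.5 CPM in lymphatic 1 to 3 and at 21.9 CPM in lymphatic 4, beside 75.1 to 90.3 CPM in culture. Its change was −0.37 ± 0.30 (adjusted p = 0.393), and −0.08 without lymphatic 4 (adjusted p = 0.566). Without that library the falls of Plcg2, Nfatc1, Stim1 and Ppp3ca were −0.46, −0.73, −0.54 and −0.47, each still called, and Ppp3ca was then also lower than in hematogenous cells (−0.36, adjusted p = 0.00359).

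Nfatc2, a second NFAT factor, was not tested, with 3 counts over all culture libraries, 46 over the lymphatic and 14 over the hematogenous ones. The ratio of its counts to those of culture, scaled by library size, was 7.98 in lymphatic (95% counting interval 2.57 to 40.1) and 4.29 in hematogenous cells (1.20 to 23.3). The hematogenous libraries held 1, 10, 2 and 1 counts, so the hematogenous ratio and its interval rest mostly on hematogenous 2. The other hematogenous libraries, at 0.0803 to 0.196 CPM, lay within the culture range of 0 to 0.230 CPM. The culture libraries hold 0, 0, 1 and 2 counts of Nfatc2, so the size of its ratio to Nfatc1 in culture rests on the 0.5 added to each count and is not given as a measured difference.

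In the relay to NF-kB, Prkcb (ENSMUSG00000052889.12), the protein kinase C beta of B cells, was nearly absent in culture, with 0, 0, 2 and 0 counts. It was at 2.84, 5.14, 4.49 and 6.07 CPM in lymphatic and 1.28, 3.62, 1.57 and 0.950 CPM in hematogenous libraries, from 336 and 80 counts. The count ratio to culture was 87.4 in lymphatic (95% counting interval 24.0 to 725) and 36.8 in hematogenous cells (9.85 to 309), with adjusted p = 2.94e-05 and 0.000328. Between the routes it was higher in lymphatic cells (log2 change 1.27 ± 0.42, adjusted p = 0.0447), a call lost under 10 of 22 settings. Its promoter, on chr7:122288875-122289174, plus strand, holds 1 match to ATTTGCAT, read on the other strand and shown in capitals, and no other listed motif. Apart from Prkcb, only 1 promoter of Blnk among the members' promoters held that octamer.
Prkcb: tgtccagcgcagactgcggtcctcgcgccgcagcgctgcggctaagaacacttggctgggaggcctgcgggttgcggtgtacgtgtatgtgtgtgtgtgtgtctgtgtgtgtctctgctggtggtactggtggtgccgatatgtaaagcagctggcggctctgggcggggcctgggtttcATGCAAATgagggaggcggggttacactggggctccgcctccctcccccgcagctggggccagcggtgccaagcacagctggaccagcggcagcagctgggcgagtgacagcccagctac

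Transcripts known from mature B cells other than the lymphoma also differed between the libraries, and were chosen for a look after the values were seen. They did not all move one way. Fcer2a, which encodes CD23 of mature follicular B cells, was at 0.0778 to 0.230 CPM in culture, 4.67 to 11.4 CPM in lymphatic and 1.90 to 6.48 CPM in hematogenous libraries. Heavy chain variable segments other than Ighv3-6, together at most 5.17% of such segments in any library, summed to 0 to 0.230 CPM, 4.40 to 19.6 CPM and 1.33 to 7.32 CPM. Cr2, the complement receptor of mature B cells, was at 1.32 to 2.90 CPM, 4.53 to 9.97 CPM and 4.17 to 10.4 CPM. Ighd, the heavy chain of IgD, was already at 300.2 to 340 CPM in culture, and it was lower in lymphatic (145 to 187 CPM) and higher in hematogenous libraries (782 to 961 CPM). Lymphatic 1 was lowest of the lymphatic libraries, and hematogenous 2 highest of the hematogenous libraries, in Blk, Prkcb, Fcer2a, Cr2 and the sum of heavy chain segments. The T cell marker sum had the same 2 ends (23.7 CPM in lymphatic 1 and 19.5 CPM in hematogenous 2), so this order is not particular to B cell transcripts. Ighd differed, with hematogenous 2 lowest of its group at 782 CPM. The part of other B cells, and that of T cells, in the levels of Blk, Prkcb and Nfatc2 was not tested.

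Malt1 and Bcl10, which carry the signal on to NF-kB, were not called against culture with all libraries. Malt1 had changes of −0.09 ± 0.19 in lymphatic and 0.51 ± 0.19 in hematogenous cells (adjusted p = 0.771 and 0.0578) and was lower in lymphatic than in hematogenous cells (−0.60 ± 0.19, adjusted p = 0.0347). Its hematogenous change was called under 7 of 22 settings, among them DESeq2 and leaving out lymphatic 4 (0.51, adjusted p = 0.000716), and its call between the routes was lost under 7. Bcl10 had means of 37.0, 38.2 and 35.5 CPM and changes of 0.05 ± 0.13 and −0.06 ± 0.14 (adjusted p = 0.821 and 0.799).

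Of the phosphatases and ubiquitin ligases 3 of 5 rose in hematogenous cells (13.9% of all genes higher). Between the routes 4 of 5 were lower in lymphatic than in hematogenous cells (10.9% of all genes lower). Against culture edgeR called 0 of 5 in lymphatic cells (26.4% of all genes called), with Inpp5d and Cbl (2 of 5) at an unadjusted p under 0.05. DESeq2 and limma-voom each called 1, Inpp5d. Inpp5d (ENSMUSG00000026288.15), the lipid phosphatase SHIP1, was at 152, 167, 155 and 147 CPM in culture, 126, 109, 147 and 78.1 CPM in lymphatic and 304, 254, 262 and 264 CPM in hematogenous libraries. Hematogenous libraries were highest without overlap and lymphatic 4 was lowest. The log2 change was 0.80 ± 0.16 in hematogenous (adjusted p = 0.00134), −0.43 ± 0.16 in lymphatic cells (adjusted p = 0.0546) and −1.24 ± 0.16 between the routes (adjusted p = 0.000155). Without lymphatic 4 the lymphatic change was −0.29 and called (adjusted p = 0.0291).

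Ptpn6, the tyrosine phosphatase SHP1, rose in hematogenous cells (333 to 446 CPM, 0.42 ± 0.11, adjusted p = 0.0118) and was at 343 CPM in lymphatic cells (0.04 ± 0.11, adjusted p = 0.819), with −0.38 ± 0.11 between the routes (adjusted p = 0.0277), a call lost under 8 of 22 settings, the replicate block among them (adjusted p = 0.0525). Cblb, a ubiquitin ligase, also rose in hematogenous cells only by the test (21.5 to 35.7 CPM, 0.73 ± 0.16, adjusted p = 0.00375), with −0.76 ± 0.16 between the routes (adjusted p = 0.00429). Cbl, its relative, was at 150, 154 and 150 CPM in lymphatic 1 to 3 and 60.0 CPM in lymphatic 4, beside 163 to 198 CPM in culture, and was not called (−0.54 ± 0.22, adjusted p = 0.0918), while without lymphatic 4 it was (−0.31, adjusted p = 0.00813). Its lower level in lymphatic than in hematogenous cells lost its call under 5 of 22 settings. The ratio of Cblb to Cbl was higher than in culture in both lymph node groups (log2 difference 0.57 and 0.54, exact permutation p = 0.0286 and adjusted p = 0.0429 each) and overlapped between the routes (0.03, exact permutation p = 0.943). Ptprc, the phosphatase CD45 that keeps SRC family kinases ready, had means of 392, 305 and 312 CPM and was not called (−0.36 ± 0.17, adjusted p = 0.137, and −0.33 ± 0.17, adjusted p = 0.178), except in hematogenous cells without lymphatic 4 (−0.33, adjusted p = 0.00318). SYK, LYN, SHIP1 and SHP1 are made by macrophages too, of whose 6 tested markers 4 were higher and 2 (Csf1r and Itgam) lower in each lymph node group. These 4 members had means of 321, 95.5, 155 and 333 CPM in culture. There 5 of the 10 macrophage markers were at 0, and Csf1r, Itgam, Cd68, Mrc1 and Adgre1 had means of 8.54, 4.89, 3.24, 2.42 and 0.130 CPM. The part of such cells in the rises was not tested.

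Other genes of the pathway, 88 tested of 94 listed in 8 lists, had 17 higher and 21 lower in lymphatic cells (43.2%), 23 higher and 16 lower in hematogenous cells (44.3%) and 8 higher and 22 lower between the routes (34.1%), beside the same background shares as above. Without lymphatic 4 they had 21 higher and 27 lower (35.6% of all genes called), 30 higher and 26 lower (43.1%), and 10 higher and 34 lower (31.5%). In that fit 11 genes of the list of other proximal kinases and regulators were tested, against 10 with all libraries. Coreceptors and inhibitory receptors had 6 higher and 2 lower of 10 in lymphatic cells, and 8 higher and 1 lower in hematogenous cells. Siglecg, an inhibitory lectin, rose from 69.8 to 154 and 204 CPM, and Fcgr2b, the inhibitory Fc receptor, from 106 to 238 and 162 CPM. Cd22, another inhibitory lectin, fell in lymphatic cells only by the test, from 420 to 210 CPM (−1.00 ± 0.16, adjusted p = 0.000347), and was at 409 CPM in hematogenous cells, with −0.96 ± 0.16 between the routes (adjusted p = 0.00083).

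The other lists held changes in both directions. Of all tested genes 13.4% were higher and 13.0% lower in lymphatic cells, and 13.9% were higher and 13.9% lower in hematogenous cells. Among other proximal kinases and regulators, 4 were higher and 3 lower of 10 in lymphatic cells and 5 and 2 in hematogenous cells. Tec, a relative of Btk, fell from 197 to 62.3 and 51.8 CPM (−1.66 ± 0.13 and −1.93 ± 0.13, adjusted p = 5.87e-07 and 1.08e-07), and Lck, the T cell kinase related to Fyn, rose from 6.02 to 20.3 and 30.4 CPM. Between the routes Lck was not called with all libraries (−0.58 ± 0.22, adjusted p = 0.0731), and it was called lower in lymphatic cells without lymphatic 4. Of the 12 T cell markers 10 were higher in lymphatic than in hematogenous cells (11.4% of all genes higher) and 2 were not called. Cd3e of the T cell receptor complex, 1 of the 12, was at means of 3.02 CPM in lymphatic and 0.679 CPM in hematogenous cells. The part of T cells in the level of Lck was not tested. Among other adaptors, 2 were higher and 2 lower of 13 in lymphatic and 4 and 1 in hematogenous cells, with Sh3bp2, a SYK-binding adaptor, falling from 63.6 to 14.2 and 17.5 CPM and Lat2, an adaptor of B and myeloid cells, rising from 0.558 to 2.40 and 12.5 CPM.

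In the 4 downstream lists 11 of 45 tested genes were called in each lymph node group, 3 higher and 8 lower (24.4%, beside 26.4% and 27.8% of all genes). Of 11 other PI3 kinase and AKT genes 3 fell in lymphatic and 2 in hematogenous cells, with the lipid phosphatase gene Inppl1 falling from 430 to 131 and 243 CPM. Of 14 other calcium and NFAT genes 1 rose and 2 fell in lymphatic and 2 rose and 2 fell in hematogenous cells, and Itpr2, a calcium channel related to Itpr1, fell in lymphatic cells from 141 to 57.8 CPM. Of 11 other relay genes 3 fell in each group. In the RAS and ERK arm 2 of 9 rose in lymphatic cells, and 1 rose and 1 fell in hematogenous cells. Without lymphatic 4 more of these genes were called, as were more of all tested genes (35.6% in lymphatic and 43.1% in hematogenous cells). In lymphatic cells 6 PI3 kinase and AKT genes then fell, 2 relay genes rose and 4 fell, and 1 gene of the RAS and ERK arm fell. In hematogenous cells 2 PI3 kinase and AKT genes rose and 4 fell, and 4 calcium and NFAT genes rose and 5 fell. There 1 relay gene also rose, and 3 genes of the RAS and ERK arm fell.

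Genes known to respond to antigen receptor signals split as well, with 2 higher and 6 lower of 10 in lymphatic cells and 3 higher and 4 lower in hematogenous cells. The shares of all tested genes were 13.4% higher and 13.0% lower in lymphatic cells and 13.9% higher and 13.9% lower in hematogenous cells. Bhlhe40, a transcriptional repressor, fell from 75.5 to 4.16 and 2.77 CPM (−4.19 ± 0.20 and −4.80 ± 0.21, adjusted p = 1.05e-08 and 3.15e-09). Egr2, a zinc finger factor, fell from 27.1 to 1.41 and 2.77 CPM (−4.29 ± 0.28 and −3.28 ± 0.27). Egr1, its relative, was at 4.10, 5.52 and 12.2 CPM and rose in hematogenous cells (1.59 ± 0.18, adjusted p = 1.45e-05). The activation marker Cd69 fell from 11.1 to 6.29 and 1.81 CPM, while Cd83 and Cd86 of the same list were called higher in both lymph node groups.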

How the data were processed

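Poly(A) RNA of 12 mouse libraries was sequenced from 1 end with strand kept, per the labels' protocols. The authors used FastQC 0.11.9, Trimmomatic 0.39, HISAT2 2.1.0, HTSeq 2.0.2 and GRCm39, per the submitters' processing notes. The deposited files hold raw counts per gene, without normalization. Reads assigned to no gene (5 lines of each file, with 30.3% to 36.5% of its reads) stayed out of library sizes and tests. Molecular identifiers are not mentioned in the labels, so counting intervals and floors cover counting error only.

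Groups follow the sample titles. Symbols were matched for 91.8% of the 56748 IDs. Exon lengths come from GENCODE M21 on GRCm38, an older build, and so do promoters (RefSeq), and no coordinates of the count files are printed. Tests across genes used edgeR 4.0.16 (R 4.3.3, TMM, filterByExpr, quasi-likelihood F test, all 12 libraries, group only, 9 residual degrees of freedom, common dispersion 0.0457), adjusted by Benjamini-Hochberg over 13535 genes at a threshold of 0.05, two-sided. Each SE is approximate, being the absolute log2 change over the root of F. Ratios of paired members were compared by exact permutation (scipy 1.17.1) with 0.5 added to each count, adjusted over 15 tests. On data simulated for lymphatic against culture, 81 of 100 genes changed by a log2 of 1 and 99 of 100 changed by a log2 of 2 were recovered, with 11 calls among 13231 unchanged genes. The changed genes were drawn from well expressed genes only, and no library was given a length trend like that of lymphatic 4. Recovery of genes as low as Blk and Prkcb, or of changes under a log2 of 1, was not simulated.

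The members, lists and tests were chosen with earlier results of these data known. Values in every library are given for members called with a log2 change of at least 1 in any comparison and for Cd79a and Cd79b. Lyn, Grb2, Swap70, Plcg2 and Nfatc1 were added after their values were seen. Of other pathway genes, up to 4 per list qualified, those with the largest change among called genes whose higher group averaged at least 10 CPM, and a part of these is named. Cd3e, Fcer2a, Cr2, Ighd and the heavy chain segments were named after their values were seen. Promoters are those of the 3 members with the largest mean change in both groups that the RefSeq table holds, and Blk has no entry. No 2 libraries held identical counts. Replicate numbers occur in each group, but deviations of same-numbered libraries correlated from −0.181 to 0.0919, 0 of 12 pairs over 0.1, so numbers were not taken as pairs. Alternatives used DESeq2 1.42.0, limma 3.58.1 (voom), other scaling, filters and fits, a replicate block, and leaving out each library. Protein sequences were not used here.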

Additional observations from a re-analysis of the deposited data

Results flagged for a closer look

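Within groups of 4, a library was set apart from the other 3 by Dixon's criterion in 9 of 102 groups (34 members in 3 groups), where chance gives about 5.1. Lymphatic 4 was the library in 3 of these: Cd81 was at 90.2 CPM there (48.5 to 53.4 CPM in the other lymphatic libraries), Itpr1 at 21.9 CPM (76.2 to 83.5) and Cbl at 60.0 CPM (150 to 154). Hematogenous 4 was low in Fyn, at 38.7 CPM (42.2 to 42.9), and high in Btk, at 278 CPM (237 to 244). Lymphatic 1 was low in Blk, at 1.96 CPM (3.63 to 3.82), hematogenous 2 was high in Nfatc2, at 0.842 CPM (0.0803 to 0.196), culture 1 was low in Cbl, at 163 CPM (193 to 198), and culture 3 was the only culture library with Prkcb, at 0.215 CPM from 2 counts.

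Grb2 and Swap70 had effects of opposite sign against culture in the lymph node groups, and the difference between the groups was itself called. For Grb2 it was −0.81 (adjusted p = 0.000293 by edgeR), from −0.38 in lymphatic and 0.43 in hematogenous cells. For Swap70 it was −0.85 (adjusted p = 0.000463), from −0.37 and 0.49.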

How the results depend on the processing

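Of the members called against culture, Cd79b, Blk, Bank1, Dapp1 and Prkcb (5 of 7 higher) and Fyn, Vav2, Plcg2, Stim1 and Nfatc1 (5 of 9 lower) kept their call in lymphatic cells under all 22 alternatives, as did 14 of 15 higher (all but Pik3r1) and Fyn in hematogenous cells, except that Prkcb could be tested there under 21, not having passed the filter with only those groups in the fit. Between the routes Grb2, Vav1, Hcls1, Swap70, Plcg2, Nfatc1, Inpp5d and Cblb kept it (8 of 15 lower), and 0 of 2 higher. No result reversed. The causes of the changes below were not tested, except that a fold limit leaves fewer calls by construction.

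Counts that stayed close to those of the fit by group of all 12 libraries may be left out here and in the next paragraph. A direction not listed is therefore not a count of 0. With at least 2-fold asked for as well, members called were 3 higher and 1 lower in lymphatic cells (10.4% of all genes), 5 higher and 1 lower in hematogenous cells (13.0%), and 1 higher and 1 lower between the routes (7.65%). Other pathway genes were then 11 lower in lymphatic cells, 15 higher and 7 lower in hematogenous cells, and 4 higher and 6 lower between the routes. With only the 2 groups compared in the fit, members called were 5 lower in lymphatic cells, 6 lower in hematogenous cells, and 0 higher and 8 lower between the routes, and other pathway genes were 27 lower in hematogenous cells and 5 higher and 12 lower between the routes. Upper quartile scaling left 5 lower members in lymphatic cells, total counts 0 and no filter on low counts 1 higher member between the routes, and leaving out lymphatic 4 and culture 4 together gave 5 lower members in hematogenous cells. Apart from the 2-fold counts, no share of all genes called is given beside the counts of this paragraph, so they describe the listed genes only.

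With the replicate number as a block, members called were 6 higher and 6 lower in lymphatic cells (21.9% of all genes called), 14 and 1 in hematogenous cells (24.7%), and 1 and 11 between the routes (17.1%), and other pathway genes were 5 higher between the routes. The labels do not say whether the numbers pair the libraries, and they were not taken as pairs.

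Leaving out each library in turn, members called ran from 6 to 7 higher and 5 (without culture 2) to 14 (without lymphatic 4) lower in lymphatic cells, 14 to 16 higher and 1 to 5 (without lymphatic 4) lower in hematogenous cells, and 0 to 2 higher and 10 to 19 (without lymphatic 4) lower between the routes. Other pathway genes ran from 16 to 21 and 19 to 27, from 20 to 30 and 13 to 26 (without lymphatic 4), and from 4 to 10 and 19 to 34 (without lymphatic 4). Of all genes, 35.6%, 43.1% and 31.5% were called without lymphatic 4 in the same 3 comparisons. The log2 ratio differences against culture then ran from 0.93 to 1.06 and 1.08 to 1.17 for Cd79b to Cd79a, −2.02 to −1.90 and −2.34 to −2.25 for Fyn to Lyn, −0.55 to −0.42 and −1.00 to −0.91 for Vav2 to Vav1 (0.41 to 0.55 between the routes), 2.88 to 3.82 in lymphatic cells for Nfatc2 to Nfatc1 (values that rest on the 0.5 added to each count, as culture holds 0 to 2 counts a library), and 0.42 to 0.64 and 0.50 to 0.58 for Cblb to Cbl. With 3 against 4 libraries the exact test cannot go below 0.0571, so no ratio could pass. Depth limits Blk, Prkcb and Nfatc2, whose culture libraries hold 0, 2 and 3 counts.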
